A study of Homo sapiens with 6 samples.

Results

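The nuclear genes of oxidative phosphorylation were examined for E2F1 binding and for the repressive histone mark H3K27me3 in MDA-MB-231, a long-established line of human breast cancer cells of the triple-negative type. Members were taken by gene symbol from the protein-coding genes of GENCODE release 44 on the autosomes and chromosome X. They comprise the NDUFA, NDUFB, NDUFC, NDUFS and NDUFV genes of complex I without the NDUFAF assembly factors, SDHA to SDHD of complex II, the UQCR genes of complex III, the COX5, COX6, COX7 and COX8 subunit genes of complex IV, and the ATP5F1, ATP5M and ATP5P genes of complex V. The rule gave 86 genes out of 19970, with 39 in complex I, 4 in complex II, 9 in complex III, 15 in complex IV and 19 in complex V. They include 2 readthrough genes, NDUFC2-KCTD14 and ATP5MF-PTCD1, which share starts with NDUFC2 and ATP5MF. No measured value entered the choice. A gene had a peak when an E2F1 summit lay within 1 kb of any of its annotated transcription start sites (TSSs), or when an H3K27me3 peak overlapped that window.

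The study asked how EZH2, the methyltransferase that deposits H3K27me3, works together with the cell cycle transcription factor E2F1 in this cancer. E2F1 was immunoprecipitated from untreated cells, from cells kept for 72 h in the solvent DMSO and from cells kept for 72 h in 1 µM GSK126, a catalytic inhibitor of EZH2. H3K27me3 was immunoprecipitated from cells that had received lentivirus with a control shRNA or with an shRNA against E2F1 (shE2F1) for 24 h and were then kept for 72 h in 2 µg/ml puromycin. An input of untreated cells was sequenced too and is not used here. Each condition had 1 library, so no difference between conditions has a replicate check and no p-value is given. The peak lists hold no measure of how far E2F1 was lowered by the shRNA. All intervals are exact 95% Clopper-Pearson or Poisson intervals unless stated otherwise, and they cover counting error only.

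The 5 libraries differed in how much was called. The lists held 1056 E2F1 peaks for untreated cells, 15703 for DMSO and 14276 for GSK126, and 123957 H3K27me3 peaks for control shRNA and 135683 for shE2F1. The genome-wide background recovered from the E2F1 lists was 0.668 fragments expected to cover a base in untreated cells, 1.82 with DMSO and 1.70 with GSK126, and the weakest called summits held 7, 9 and 9 fragments. H3K27me3 peaks covered 143 Mb with control shRNA and 179 Mb with shE2F1. The lowest −log10 q was 2.08, 2.01 and 2.02 in the untreated, DMSO and GSK126 lists and 1.01 in both H3K27me3 lists. Shares for E2F1 and for H3K27me3 below thus rest on different cutoffs. A gene without a peak is one whose signal was not called, which at these depths is not the same as no binding.

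Oxidative phosphorylation couples the transfer of electrons from NADH and succinate to oxygen with the synthesis of ATP in the inner mitochondrial membrane. Complexes I to IV carry the electrons and, except for complex II, pump protons, and complex V is the ATP synthase that the proton gradient drives. Most subunits are encoded in the nucleus, from compact CpG-containing promoters that are active in nearly every cell and that are known targets of the factors NRF1, of GABP (an ETS-family factor), of YY1 and of the oestrogen-related receptors.

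Short stretches of the promoters that carry the results are shown first, so that the peaks described later can be read with their DNA. They were read from the hg38 genome 5′ to 3′ on the strand named, and capitals mark the motif. The first set holds the E2F motif nearest the E2F1 summit in the 3 members that had a peak in untreated cells, COX8A at chr11:63974496-63974524, ATP5F1A at chr18:46104439-46104467 and UQCRC1 at chr3:48609716-48609744, all on the minus strand.
COX8A: cttggcagtttTTGGCGCgttcctcgaaa
ATP5F1A: aacgatccccaTTCCCGCcccatcacctg
UQCRC1: gactgtcccggTTCCCGCcaggaggcggc
The second set holds the E2F motif at members that stood at the ends of the later comparisons. NDUFS3 (chr11:47578713-47578741, plus strand) had the highest complex I fold. SDHA and UQCRFS1 (chr5:218330-218358 and chr19:29213071-29213099, both minus strand) had the largest and smallest rise in fold between DMSO and GSK126. NDUFA13 (chr19:19516085-19516113, plus strand) had the most significant H3K27me3 peak in shE2F1.
NDUFS3: ggaaaccgttcTTCCCGCtcaggcccgcc
SDHA: catgtctgctgTTGCCGCcgcgcagtccc
UQCRFS1: gctcaggcccgTTCGCGCccgtcctgtcg
NDUFA13: ccgccagagctTTCCCGCgcggtcggata
The third set holds an NRF1, an ETS and a YY1 motif within 100 bp of a GSK126 summit where no E2F motif was found, at SDHB (chr1:17054214-17054243, plus strand, and chr1:17054143-17054171, minus strand) and ATP5MC2 (chr12:53675842-53675870, plus strand).
SDHB, NRF1: gcgcagtagcgGCGCATGCccatttggctt
SDHB, ETS: cacccgggaaaCCGGAAGccgcctcccac
ATP5MC2, YY1: cgagacatccAAGATGGCGccaggcccgc

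In untreated cells E2F1 peaks were found at 3 of the 86 genes, COX8A, ATP5F1A and UQCRC1, which is 3.49% (0.725 to 9.86%) and compares with 5.85% of all protein-coding genes. With DMSO 25 members had a peak, or 29.1% (19.8 to 39.9%) against 33.5% of all genes. With GSK126 52 members did, or 60.5% (49.3 to 70.8%) against 51.5% of all genes. In each list the share of all genes lay inside the interval of the members. All 25 members with a DMSO peak also had a GSK126 peak, and their peaks overlapped in 25 of 25. Of the 6698 protein-coding genes with a DMSO peak, 6539 had a GSK126 peak too. A further 27 members (31.4%, against 18.7% of all genes) had a peak with GSK126 and none with DMSO. No E2F1 peak in any list was found at 34 members (39.5%, against 47.7% of all genes).

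**Figure D1:**
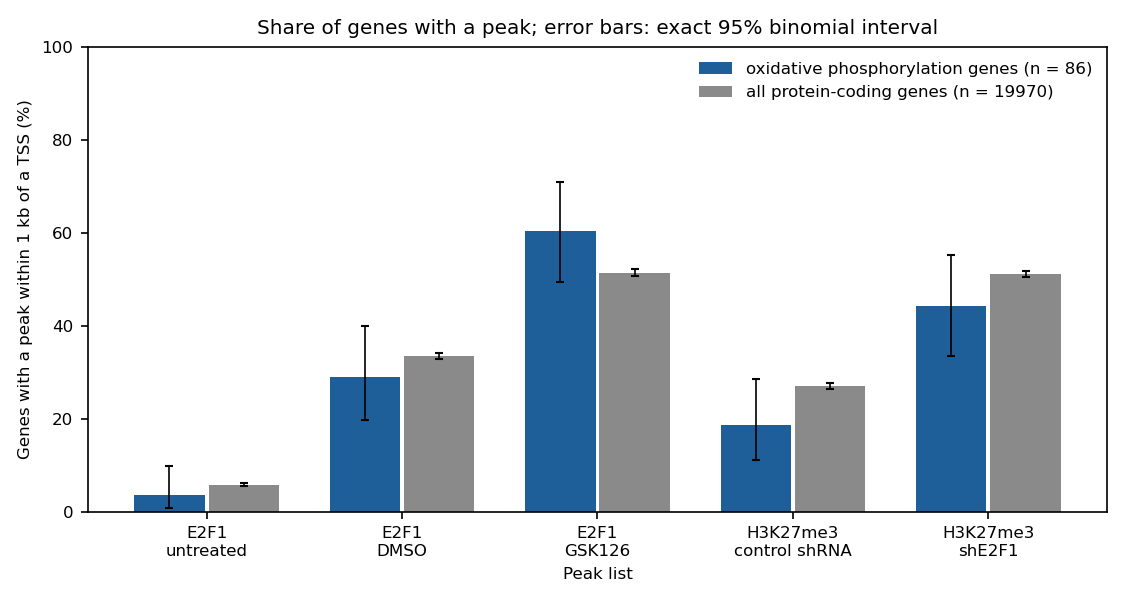
Share of genes with a peak within 1 kb of a TSS (y axis, percent) in each of the 5 peak lists (x axis), for the 86 oxidative phosphorylation genes (blue) and all 19970 protein-coding genes (grey). Bars start at 0 and error bars are exact 95% binomial intervals. The members lie at 3.49, 29.1 and 60.5% for E2F1 and at 18.6 and 44.2% for H3K27me3.

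Most genes with an E2F1 peak had a CpG-rich promoter, so the members were also set beside genes of that class, in a setting chosen with the values in view. A promoter counted as CpG-rich when the 300 bp used had a GC content of at least 55% and an observed over expected CpG ratio of at least 0.6, which held for 59 members. Of the 12392 CpG-rich genes, 8.34% had a peak in untreated cells, 46.9% with DMSO and 71% with GSK126. The 59 CpG-rich members had 2, 20 and 42 peaks, which is 3.39, 33.9 and 71.2%. Within this class the DMSO interval of the members, 22.1 to 47.4%, reached just past the share of all genes, and the GSK126 shares were alike. The 27 members that are not CpG-rich included ATP5F1A, whose peak lies away from its main promoter.

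COX8A, the liver-type small subunit of cytochrome c oxidase that is made in most tissues, had the highest E2F1 fold of all members in each of the 3 lists. Its fold was 10.8 in untreated cells, 19.3 with DMSO and 34.3 with GSK126. The summits held 30 fragments (20.2 to 42.8), 114 (94.0 to 137) and 191 (165 to 220) fragments and lay 128, 117 and 104 bp upstream of its single annotated TSS at chromosome 11 position 63974620, between genes. The E2F motif printed above for COX8A lies within 20 bp of all 3 summits, and no other protein-coding gene has a TSS within 1 kb of them. COX8A had no H3K27me3 peak in either library.

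ATP5F1A encodes the alpha subunit of the catalytic head of ATP synthase, and its peak belongs to a shared start. The fold was 7.70 in untreated cells, 11.7 with DMSO and 17.0 with GSK126, from 26, 133 and 190 fragments. In all 3 lists this summit lay about 6 kb upstream of the canonical TSS of ATP5F1A, at distances of 6124, 6090 and 6072 bp and beside an alternative ATP5F1A start and the promoter of HAUS1, a subunit of the augmin complex of the mitotic spindle. At the canonical promoter itself a peak was called with GSK126 only, with a fold of 4.23 from 27 fragments. When canonical TSSs alone were used, the untreated count was therefore 2 members.

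UQCRC1 encodes a core protein of complex III that faces the matrix. Its fold was 5.58 in untreated cells from 11 fragments (5.49 to 19.7) and 7.07 with GSK126 from 41 fragments (29.4 to 55.6), and no peak was called with DMSO. The untreated peak had a −log10 q of 4.35, the lowest of the 3 untreated members. The summits lay 104 and 116 bp upstream of its canonical TSS in an exon outside the coding sequence, with the motif printed above 20 and 32 bp away.

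The untreated list is short, and the DMSO and GSK126 lists were therefore also cut to their 1056 strongest peaks. Each then held 5 members, 5.81% (1.91 to 13.0%) against 5.94% of all genes with DMSO and 5.98% with GSK126. Both times the 5 were COX8A, ATP5F1A, NDUFS3, NDUFB11 and ATP5MC1. At equal list length the members were thus found about as often as genes in general in all 3 conditions.

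**Figure D2:**
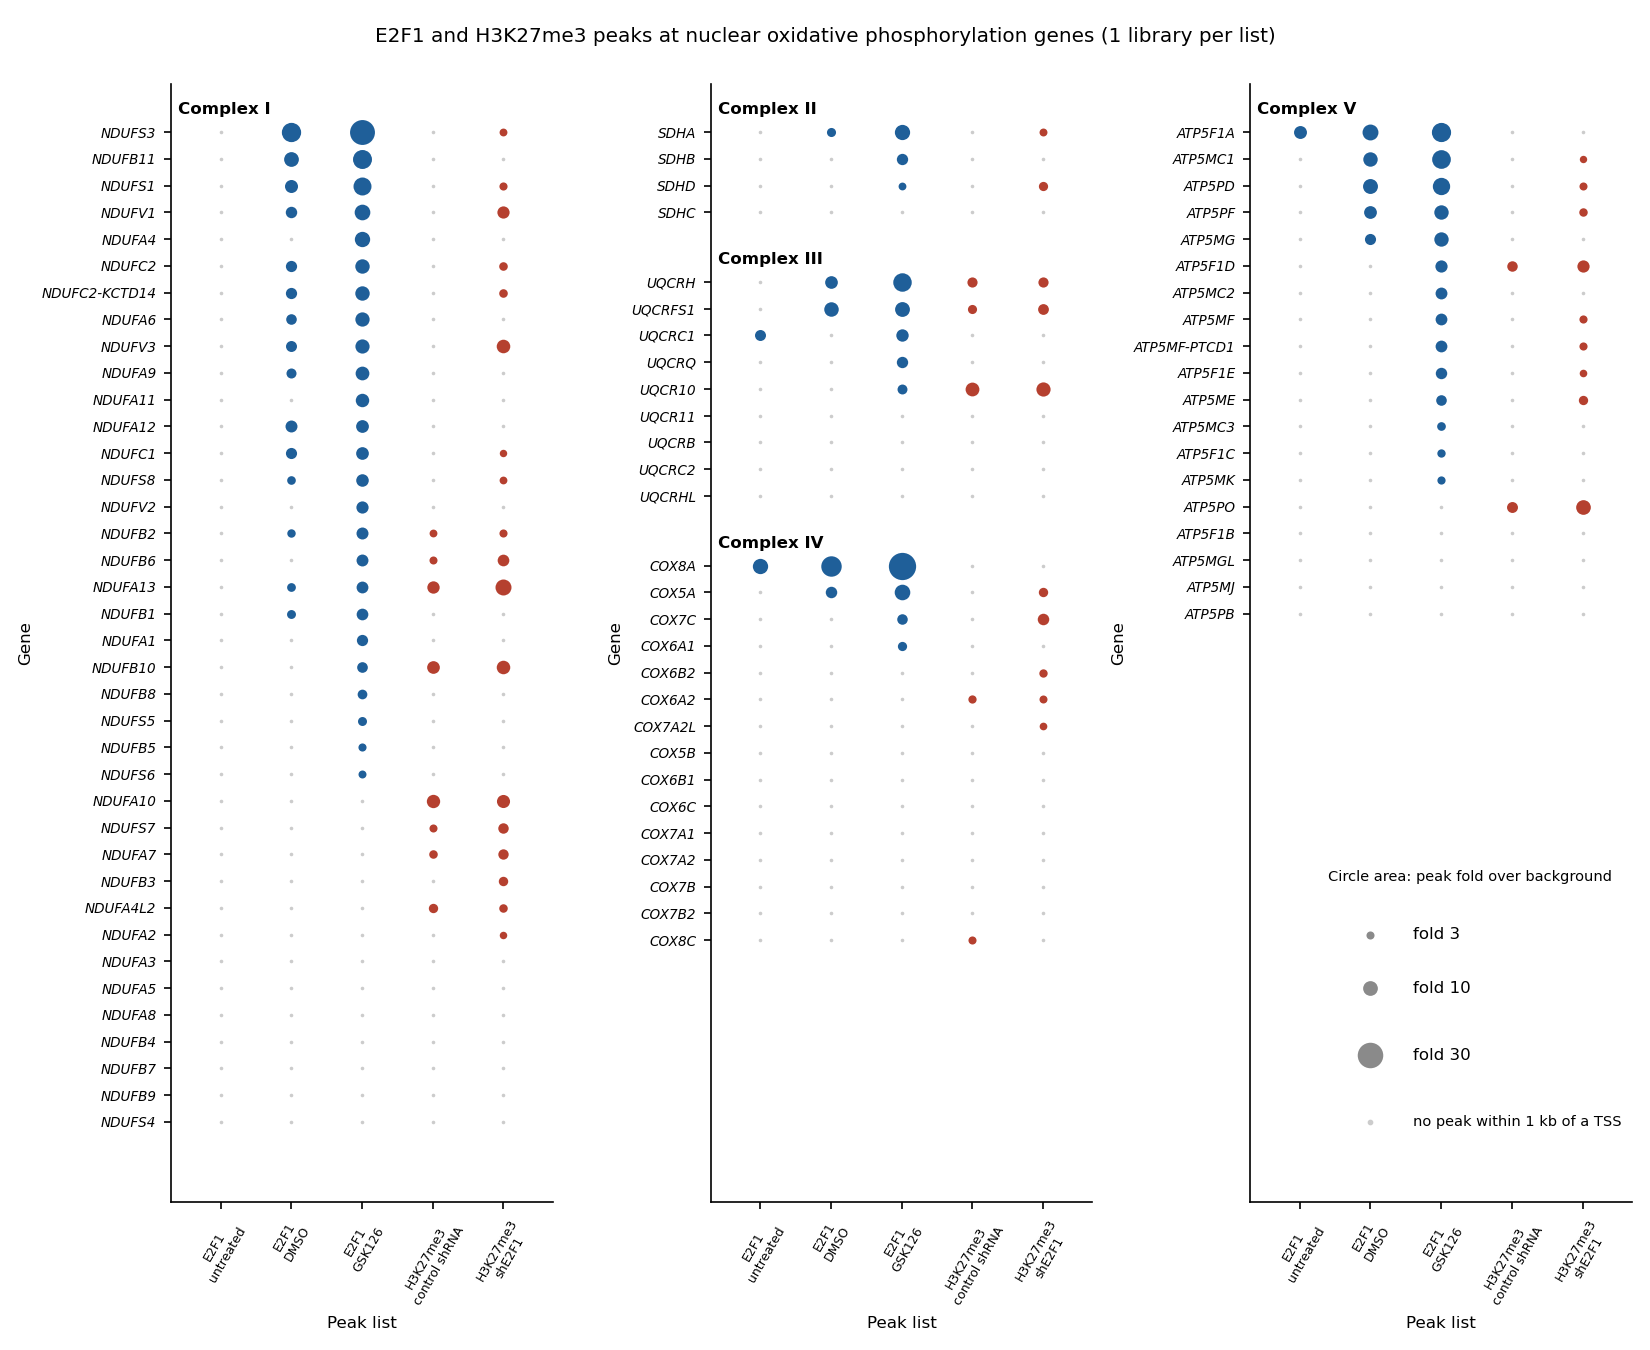
E2F1 peaks (blue) and H3K27me3 peaks (red) at 85 of the genes (y axis, by complex) in the 5 peak lists (x axis), with circle area in proportion to the fold of the strongest peak over background and small grey dots where no peak lay within 1 kb of a TSS. COX8A has the largest circle, at a fold of 34.3 with GSK126, and most complex IV rows hold no E2F1 peak.

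Complex I, which takes electrons from NADH, had no peak in untreated cells, 15 of 39 genes with one with DMSO and 26 of 39 with GSK126 (66.7%, 49.8 to 80.9%). Its highest fold was at NDUFS3, a core subunit of the matrix arm, with 17.2 for DMSO and 28.6 for GSK126. That summit lay 337 bp upstream of the canonical TSS with DMSO and also lies at the promoter of KBTBD4, and a second NDUFS3 start shared with CELF1 and PTPMT1 had folds of 10.4 and 16.0. NDUFB11, an accessory membrane-arm subunit on chromosome X, had folds of 10.0 and 16.6 next to RBM10. NDUFS1, the largest iron-sulphur subunit, had 7.81 and 14.9 next to EEF1B2, and NDUFV1, which binds NADH and FMN, had 6.03 and 11.3. Among the other nuclear core subunits, NDUFS8 had folds of 3.44 and 7.25, NDUFV2 had a peak with GSK126 only, at 6.87, and NDUFS7 had none.

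Complex II, the succinate dehydrogenase, has 4 nuclear genes. SDHA, the flavoprotein that oxidises succinate, had a fold of 3.80 with DMSO and 10.7 with GSK126 at a start it shares with CCDC127. SDHB, the iron-sulphur subunit, had a GSK126 peak alone, with a fold of 5.90 between genes and 139 bp upstream of its TSS. SDHD, a membrane anchor that shares its promoter with the import chaperone TIMM8B, had a GSK126 peak with a fold of 2.82, the lowest of the 52 members. SDHC, the other membrane anchor, had no peak in any of the 5 lists.

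Complex III had peaks at 1 of 9 genes in untreated cells, 2 with DMSO and 5 with GSK126. UQCRH, the acidic hinge protein, had folds of 7.41 and 15.8 for DMSO and GSK126 at a start shared with LRRC41. UQCRFS1, the Rieske iron-sulphur protein, had 9.69 and 10.1. UQCRQ and UQCR10 had GSK126 peaks of 5.94 and 4.55, beside UQCRC1 above.

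Complex IV, the cytochrome c oxidase, had E2F1 peaks at 1, 2 and 4 of 15 genes in untreated, DMSO and GSK126 cells, and the GSK126 share was 26.7% (7.79 to 55.1%), an interval that holds the 51.5% of all genes. The 4 were COX8A, COX5A with 6.07 and 11.2, COX7C with a GSK126 fold of 5.11 and COX6A1 with 3.93. The other 11 had none in any list, and 5 of these are forms made mainly in muscle or testis. Outside complex IV, 48 of 71 members (67.6%, 55.5 to 78.2%) had a GSK126 peak. The share in complex IV without those 5 genes was 4 of 10 (40%, 12.2 to 73.8%).

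Complex V had E2F1 peaks at 1, 5 and 14 of 19 genes. Besides ATP5F1A, the peripheral stalk subunit ATP5PD had folds of 10.3 and 13.8 for DMSO and GSK126 next to KCTD2. The coupling factor gene ATP5PF had 7.53 and 9.56 at a start shared with GABPA, which encodes a subunit of the factor GABP named above. ATP5MG, a membrane subunit, had 5.70 and 9.50. The 3 genes for the c-ring encode the same mature protein, and their folds differed. ATP5MC1 had 9.58 with DMSO and 16.1 with GSK126, whereas ATP5MC2 and ATP5MC3 had GSK126 peaks alone, of 6.48 and 3.49.

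The 25 members with both peaks all had a higher fold with GSK126 than with DMSO, as did 97.1% of the 6539 genes with both. The median log2 ratio of GSK126 over DMSO was 0.75 (order-statistic 95% interval 0.72 to 0.89) at the members and 0.73 at all genes. Measured in fragments over the lowest background of each list, the medians were 0.78 and 0.77. The median of all genes thus lay inside the members' interval on the fold scale.

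SDHA had the highest log2 ratio of fold, 1.50, followed by UQCRH with 1.09 and NDUFS8 with 1.07. Together with NDUFB2, at 1.01, these were the 4 of 25 members with a fold at least 2 times as high with GSK126, against 18.5% of all genes with both peaks. UQCRFS1 had the lowest ratio, 0.06, then NDUFA12 with 0.19 and ATP5PF with 0.34. At UQCRFS1 the summit held 30 fragments with DMSO (20.2 to 42.8) and 35 with GSK126 (24.4 to 48.7), and at SDHA 28 (18.6 to 40.5) and 45 (32.8 to 60.2). The intervals of the 2 lists overlapped at both genes. The fold is set against a local background, which at SDHA was 6.63 fragments with DMSO and 3.29 with GSK126. The fold there differed more between the lists than the fragments did. NDUFS1 went from 21 to 52 fragments, a larger rise than at SDHA. Its DMSO summit lay 600 bp and its GSK126 summit 111 bp upstream of the canonical TSS. In fragments over the lowest background, the highest log2 ratio was 1.41, and 2 of the 25 members reached 1. The summits compared were not always at the same base. At SDHA the DMSO summit lay 21 bp downstream of the canonical TSS and the GSK126 summit 232 bp upstream. At UQCRH the strongest DMSO summit lay 183 bp downstream of the canonical TSS. The GSK126 summit there lay 385 bp upstream, where DMSO had a second peak with a fold of 6.12.

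**Figure D3:**
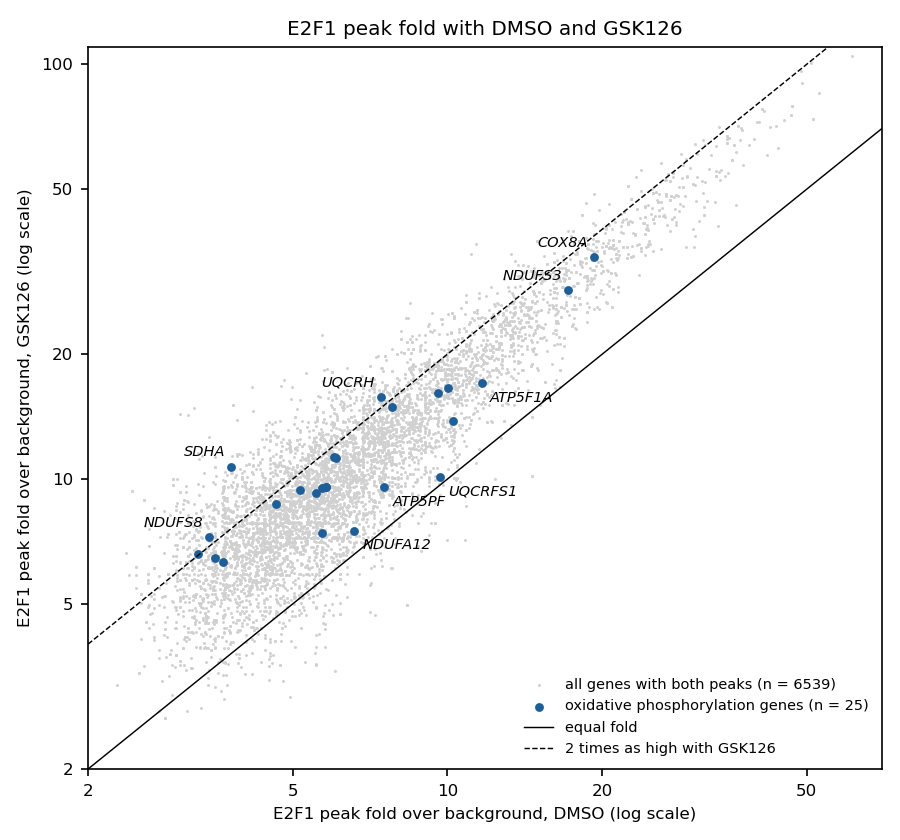
E2F1 peak fold over background with DMSO (x axis) and GSK126 (y axis), both on log scales, for the 6539 genes with a peak in both lists (grey) and the 25 oxidative phosphorylation genes among them (blue). The solid line marks equal fold and the dashed line a fold 2 times as high with GSK126. All 25 members lie above the solid line, from UQCRFS1 just above it to SDHA above the dashed line.

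The 27 members with a GSK126 peak and no DMSO peak had weaker GSK126 peaks, with a median fold of 5.82 against 9.56 at the 25 with both. UQCRC1, which had an untreated peak, is one of these 27 members. NDUFA4 was the highest of them at 10.8, with 41 fragments. Despite its name, its protein is now counted with complex IV. At all genes the corresponding medians were 5.34 and 10.0. Of these 27 peaks, 20 had a −log10 q of at least 5.

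The 34 members without an E2F1 peak in any list were spread over all complexes. In complex I they were NDUFA2, NDUFA3, NDUFA4L2, NDUFA5, NDUFA7, NDUFA8, NDUFA10, NDUFB3, NDUFB4, NDUFB7, NDUFB9, NDUFS4 and NDUFS7. In complexes II and III they were SDHC, UQCR11, UQCRB, UQCRC2 and UQCRHL. In complex IV they were COX5B, COX6A2, COX6B1, COX6B2, COX6C, COX7A1, COX7A2, COX7A2L, COX7B, COX7B2 and COX8C, and in complex V ATP5F1B, ATP5MGL, ATP5MJ, ATP5PB and ATP5PO. These promoters still held CpG, with a median observed over expected ratio of 0.79, whereas the 9527 protein-coding genes without an E2F1 peak had a median of 0.46. ATP5F1B, the catalytic beta subunit, thus had no called peak beside its partner ATP5F1A. Of the 34, 23 had no peak of either kind in any of the 5 lists. These are 26.7% of the 86 members, against 26.1% of all genes.

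Isoform pairs were compared because one form is made in most tissues and the other in few. None of the 8 restricted or copied forms (COX6A2, COX6B2, COX7A1, COX7B2, COX8C, NDUFA4L2, UQCRHL and ATP5MGL) had an E2F1 peak in any list, which allows a share of up to 36.9%. Their widespread counterparts COX8A, NDUFA4, UQCRH, ATP5MG and COX6A1 did. COX6B1, COX7A2 and COX7B did not, and neither did COX7A2L, which is known for joining complexes III and IV into supercomplexes. With control shRNA, H3K27me3 peaks were called at COX6A2 with a fold of 3.14, NDUFA4L2 with 4.03 and COX8C with 3.01, and with shE2F1 at COX6A2 with 2.95, NDUFA4L2 with 3.35 and COX6B2. The midpoints of the NDUFA4L2 peaks lay 3856 bp (control shRNA) and 3627 bp (shE2F1) upstream of its canonical TSS, near an alternative start. The COX6B2 midpoint lay 1933 bp upstream of its TSS. Of the 8 forms, 2 have a CpG-rich promoter, COX6B2 and COX7A1. UQCRHL and ATP5MGL are near copies of UQCRH and ATP5MG, and reads that map to both places may have been lost there, which was not tested. Without the 8 forms, 52 of 78 members (66.7%, 55.1 to 76.9%) had a GSK126 peak. The share was 51.5% of all genes and 71% of all CpG-rich genes, from which no such forms were taken out. Leaving out genes without a peak could only raise the members' share.

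Many members share their start with another gene. A protein-coding gene on the opposite strand began close by at 27 of the 86 promoters (31.4%), against 12.7% of all protein-coding genes. Of the 53 distinct GSK126 peaks at members, 28 also lay within 1 kb of a TSS of another protein-coding gene, as did 16 of the 27 DMSO peaks and 1 of the 3 untreated peaks. When shared peaks were left out, a setting added after the data were seen, 2 members had a peak in untreated cells, 10 with DMSO and 24 with GSK126. The GSK126 share was then 27.9% (18.8 to 38.6%) for the members and 37.5% for all genes, so their order was turned. With DMSO the shares were 11.6 and 23.8%. For H3K27me3 with shE2F1 they were 23.3 and 40.6%, and the difference from control shRNA was 9.30 percentage points for the members (2.37 to 16.2) and 17.5 for all genes. The other gene could also be a readthrough gene or a coding gene without a name. For the GSK126 peaks it was NDUFC2-KCTD14 alone at NDUFC2, and an unnamed gene alone at ATP5MG, NDUFA11 and COX6A1. Part of the fall in the members' counts thus comes from such peaks, and the same rule was applied to all genes. Where the other gene is a separate named one, the peak cannot be assigned to one gene of the pair. Members with an opposite-strand neighbour had GSK126 peaks in 19 of 27 cases (70.4%) and members without one in 33 of 59 (55.9%), where all genes had 80.7 and 47.2%.

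H3K27me3 peaks were found at 16 members with control shRNA, or 18.6% (11 to 28.4%) against 27.1% of all genes, and at 38 with shE2F1, or 44.2% (33.5 to 55.3%) against 51.2% of all genes. The difference was 25.6 percentage points for the members (normal 95% interval 15.8 to 35.3) and 24.1 for all genes. Of the 86, 23 had a peak with shE2F1 only (26.7%, against 26% of all genes) and 15 with both (17.4%, against 25.2%). Another 47 had a peak with neither (54.7%, against 46.9%), and 1, COX8C, with control shRNA only (1.16%, against 1.94% of all genes). Among CpG-rich genes 25.2% had a peak with control shRNA and 58.3% with shE2F1, and of the 59 CpG-rich members 11 and 30 did (18.6 and 50.8%). The larger number and coverage of shE2F1 peaks in the genome as a whole, given above, moves with this difference, and its part was not tested.

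The members' position relative to all genes depended on peak strength. With −log10 q of at least 5, 7 members had a control shRNA peak, or 8.14% (3.34 to 16.1%) against 2.6% of all genes, and 15 had an shE2F1 peak, or 17.4% (10.1 to 27.1%) against 9.19% of all genes. All 7 were among the 15. The order of members and all genes was thus opposite with all called peaks and under this strict threshold. With all called peaks, however, the shares of all genes lay inside the members' intervals, and under the strict threshold they lay below them. With −log10 q of at least 2 the counts were 12 and 28 members, or 14 and 32.6%, against 14.6 and 28.9% of all genes.

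The members' H3K27me3 peaks were short and close to the TSS. With control shRNA the median width was 303 bp and the median distance of the midpoint from the nearest TSS was 94 bp, against 788 bp and 412 bp at all genes with a peak. With shE2F1 the median width was 536 bp at the members and 668 bp at all genes, and the distances were 48.5 and 170 bp. A midpoint within 200 bp of a TSS was found for 12 of 16 and 29 of 38 members (75 and 76.3%) and for 36.2 and 53.9% of all genes with a peak.

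Several members had strong H3K27me3 peaks in both libraries. NDUFA13, also known as GRIM-19, had folds of 7.03 with control shRNA and 11.8 with shE2F1, and −log10 q of 18.7 and 47.4. UQCR10, a small complex III subunit, had 8.78 and 9.30. NDUFB10, an accessory membrane-arm subunit, had 7.43 and 8.44.
NDUFA10, an accessory subunit of the complex I membrane arm, was lower with shE2F1, at 8.19 and 7.91. ATP5F1D, the delta subunit of the central stalk, had 5.06 and 6.90. These genes thus carried a called mark in both libraries.

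In the 15 members with a peak in both libraries the shE2F1 fold was higher in 12, whereas among all 5025 such genes it was higher in 48.7%. The median log2 ratio of shE2F1 over control was 0.18 (0.01 to 0.74) at the members and -0.01 at all genes. The largest ratio was at NDUFB6, an accessory subunit, with folds of 2.97 and 6.28 and a log2 ratio of 1.08. ATP5PO, the oligomycin sensitivity subunit of the stator, had 5.51 and 9.93. NDUFA10, NDUFA4L2 and COX6A2 were lower with shE2F1. The members' shE2F1 peaks that were also present in control were strong, with a median fold of 6.28 and −log10 q of 13.4, against 3.29 and 2.21 at all genes.

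**Figure D4:**
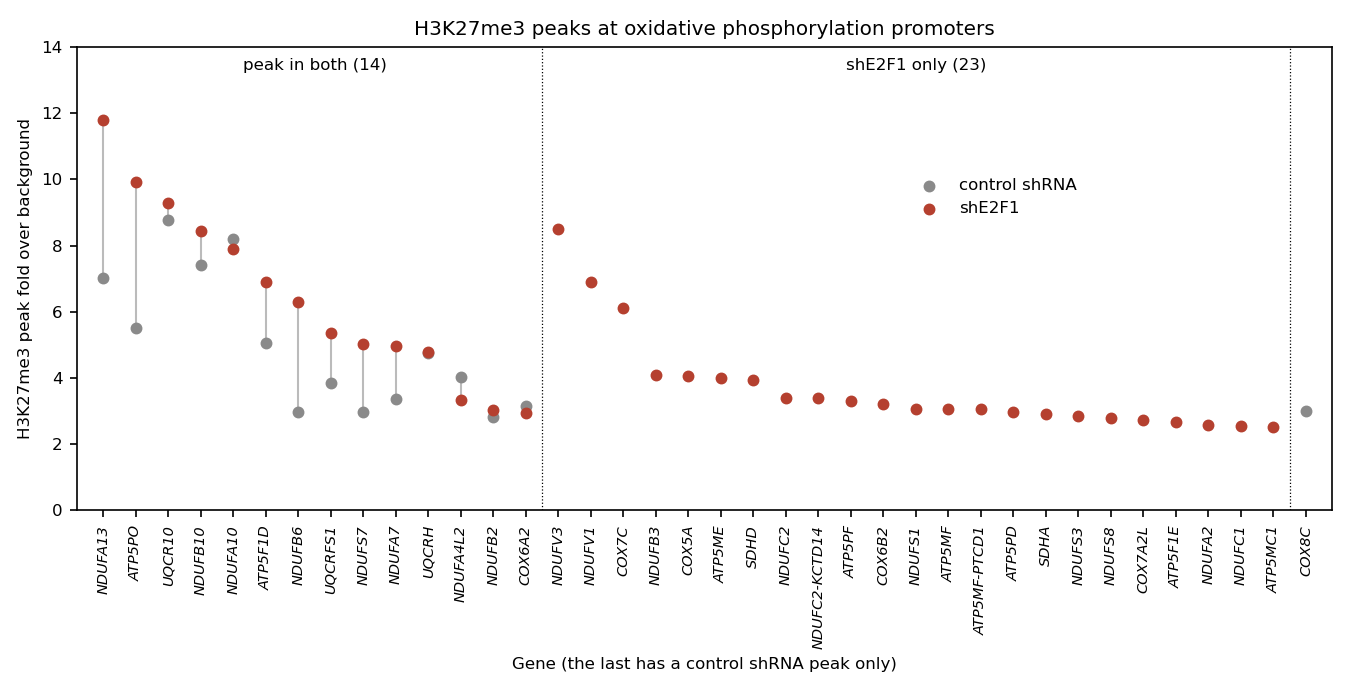
H3K27me3 peak fold over background (y axis, from 0) with control shRNA (grey) and shE2F1 (red) at 38 members with a peak in either library (x axis), 1 library each. The left part holds 14 genes with both peaks, of which 11 are higher with shE2F1, the middle part 23 genes with an shE2F1 peak only, most of them under a fold of 4, and COX8C stands last with a control peak only.

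The 23 members with a peak in shE2F1 only carried weaker marks. Their median fold was 3.06 and median −log10 q 2.28, close to the 3.11 and 2.10 of all such genes. The peaks of 3 members had a −log10 q of at least 5, and those of 9 lay under 2. By −log10 q NDUFV1 led in complex I with a fold of 6.90 and −log10 q of 23.6, at its TSS. NDUFV3, an accessory flavoprotein-fraction subunit, had 8.49 and 19.8, but this peak lies about 14 kb upstream of the canonical TSS at a start shared with WDR4, and the peak at the canonical promoter had a fold of 2.91.

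NDUFB3, an accessory subunit, followed with 4.10 and −log10 q of 4.99, and NDUFS8 with 2.81 and 2.53. In complex II SDHD had a fold of 3.93 and SDHA one of 2.91, and no complex III gene was in this class. In complex IV the structural subunit COX7C had 6.12, at −log10 q of 11.6, and COX5A had 4.05.
The testis form COX6B2 had 3.22 and COX7A2L 2.72. The COX6B2 peak reached the window with its edge only, and its midpoint lay 1933 bp upstream of the TSS in an intron of GARIN5B. The COX7A2L peak, with a −log10 q of 1.19, lay 64165 bp upstream of the canonical TSS, beside an alternative start. In complex V the membrane subunit ATP5ME had 4.01 and ATP5MF 3.05, a peak that is also counted for the readthrough gene ATP5MF-PTCD1, and ATP5PF had 3.31. Counts by complex were 10 of 39, 2 of 4, 0 of 9, 4 of 15 and 7 of 19 from complex I to V.

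Most of the H3K27me3 peaks seen with shE2F1 only overlapped an E2F1 peak of GSK126-treated cells. Of the 23 members, 19 had a GSK126 E2F1 peak (82.6%, against 78.2% of all genes with H3K27me3 in shE2F1 only), and the shE2F1 peak overlapped it in 19 of 19, as it did in 94.9% of the 4067 genes of this kind in the genome. The same held for 9 of 9 members with H3K27me3 in both libraries and a GSK126 peak. By E2F1 class, 13 of the 25 members with DMSO and GSK126 peaks gained H3K27me3 (52%, 31.3 to 72.2%). So did 6 of the 27 with a GSK126 and no DMSO peak (22.2%, 8.62 to 42.3%) and 4 of the 34 with neither (11.8%, 3.30 to 27.5%). The shares of all genes in these classes were 43.5, 32.6 and 11.5%. The 3 members with an untreated E2F1 peak had no H3K27me3 peak in either library, as was so for 54.7% of the 86 members and 46.9% of all genes. The share among all genes with an untreated E2F1 peak is not given here. The E2F1 and H3K27me3 libraries came from differently treated cells, so an overlap of peaks does not place both on the same chromatin.

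Promoter sequence was compared in the 300 bp from 250 bp before to 50 bp after the canonical TSS, on both strands. The E2F motif was TTCCCGC or TTCGCGC or TTGCCGC or TTGGCGC, and it was found at 27 members (31.4%, 21.8 to 42.3%) and at 17.1% of all protein-coding genes. GCGCATGC, read by NRF1, was found at 13 members (15.1%, against 4.25%), CCGGAAG of the ETS family at 23 (26.7%, against 14.1%) and AAGATGGCG of YY1 at 10 (11.6%, against 2.84%). TCAAGGTCA of the oestrogen-related receptors was at 2 members, SDHD and ATP5MC3 (2.33%, against 0.185%). GGGCGG of the SP family was at 51 (59.3%, against 61.3%). Among CpG-rich promoters the E2F motif was at 33.9% of members (22.1 to 47.4%) and 23.4% of genes, a share inside that interval. The NRF1 motif was at 20.3 and 5.92%, the ETS motif at 30.5 and 19.0% and the YY1 motif at 11.9 and 3.85%. The SP motif was less frequent at these members, at 67.8% (54.4 to 79.4%) against 83.1% of CpG-rich genes. Motifs of different factors can overlap in these windows, and a match is a stretch of letters and not a binding site.

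**Figure D5:**
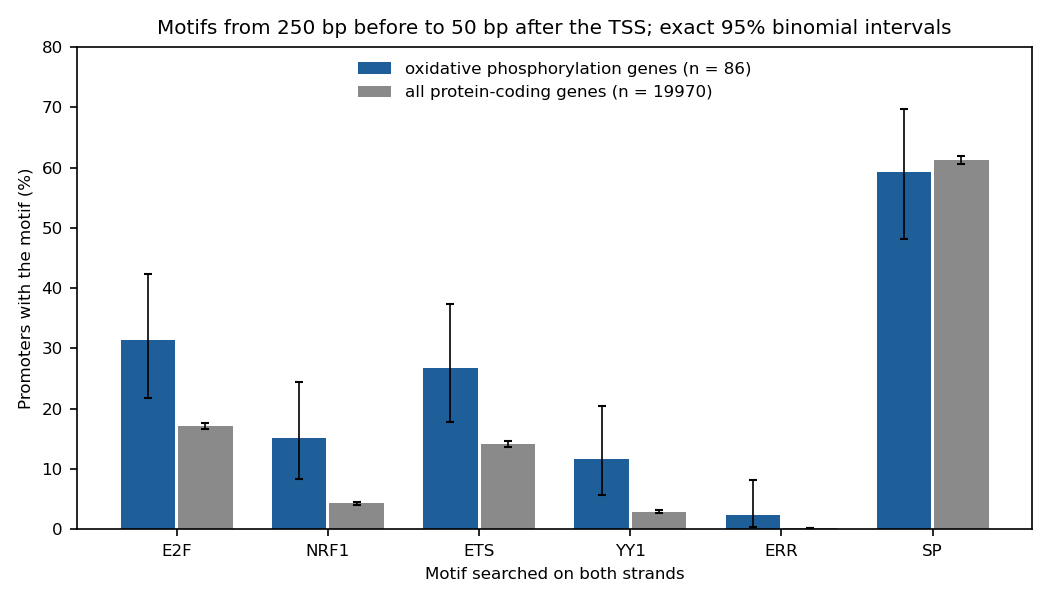
Share of promoters (y axis, percent, from 0) with each motif (x axis) from 250 bp before to 50 bp after the canonical TSS, for the 86 members (blue) and all 19970 protein-coding genes (grey), with exact 95% binomial intervals. The E2F, NRF1, ETS and YY1 bars of the members stand at 31.4, 15.1, 26.7 and 11.6%, and the SP bars at 59.3 and 61.3%.

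The motifs were also counted by E2F1 class, with no test of the difference between classes. The E2F motif was at 12 of the 25 members with DMSO and GSK126 peaks (48%) and at 10 of the 27 with a GSK126 and no DMSO peak (37.0%). It was at 5 of the 34 with none (14.7%), and all genes with both and with none had 28.3 and 9.36%. The NRF1 motif was at 1, 7 and 5 members of these classes (4, 25.9 and 14.7%), with intervals that overlapped, and at 5.81 and 2.49% of all genes with both and with none. It stood in NDUFS6, SDHB, SDHD, COX6A1, ATP5F1C, ATP5MC2 and ATP5ME, which had GSK126 peaks alone, in NDUFA5, NDUFA8, NDUFB4, NDUFS7 and COX5B, which had no E2F1 peak, and in NDUFA6, which had both. Within 100 bp of the summit, the E2F motif was found for 3 of 3 members in untreated cells, 11 of 25 with DMSO (44%) and 23 of 52 with GSK126 (44.2%, 30.5 to 58.7%), against 56.1, 37.5 and 32.3% of all genes with a peak.

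Other genes of the pathway were read from 3 lists, chosen by function and not by how they moved in these data. Among 54 assembly factors for the complexes, 5 had an E2F1 peak in untreated cells, 27 with DMSO and 49 with GSK126 (90.7%, 79.7 to 96.9%), and 9 and 29 had H3K27me3 with control shRNA and shE2F1 (16.7 and 53.7%). Over all protein-coding genes the 5 shares were 5.85, 33.5, 51.5, 27.1 and 51.2%. Of the 54, 47 had a CpG-rich promoter, and 71% of all genes of that class had a GSK126 peak. An opposite-strand neighbour was found at 24 of the 54 (44.4%, against 12.7% of all genes), and 80.7% of all genes with one had a GSK126 peak. The untreated peaks were at TMEM126B, a complex I assembly factor, with a fold of 10.1 that was 24.1 with DMSO and 41.3 with GSK126, at NDUFAF6 with 8.37, at ACAD9 and COA1 with 7.99 and at SDHAF2 with 7.37.
Of 7 further subunits and carriers, all with CpG-rich promoters, 3 had a DMSO peak and 6 a GSK126 peak. CYCS, the electron carrier cytochrome c, was the highest with 9.54 and 17.0, and COX4I1, which the symbol rule leaves out, had a GSK126 fold of 4.46. Of 12 regulators of these genes, 1 had a peak in untreated cells, 7 with DMSO and 10 with GSK126, where 11 of the 12 promoters were CpG-rich and the shares of all CpG-rich genes were 8.34, 46.9 and 71%. The untreated one was GABPB1, a GABP subunit, with folds of 4.17, 6.91 and 11.8 over the 3 lists. PPRC1, a PGC-1-related coactivator, had 9.14 and 18.5, and PPARGC1A, the PGC-1α gene, had no E2F1 peak.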

How the data were processed

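ChIP-seq peak lists of 5 libraries of MDA-MB-231 cells were used, 1 library per condition. Per the methods and labels, the authors trimmed reads with cutadapt 4.5, filtered them with Picard and SAMtools, aligned them with Bowtie2 2.5.2 to GRCh38 and called peaks with MACS2 2.2.9.1, in broad mode for H3K27me3. Which control library went with each list is not given in the sources used here. For every peak the deposited files hold its fold over local background, a ratio, together with −log10 of the p-value and of the q-value. A deposited score was not used.

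TSSs came from GENCODE release 44 and sequence from hg38. Where a gene had several peaks, the one with the highest −log10 q gave its values, with ties settled by fold. Fragment numbers at E2F1 summits were solved from fold and −log10 p to a relative error of 2e-05, which was tested on simulated data. Python 3.11.15, NumPy 2.4.6, pandas 2.3.3, SciPy 1.17.1, pysam 0.24.0 and matplotlib 3.10.9 were used. RefSeq's promoter table held 68 of the 86 members, and sequences are printed for these alone.

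With no replicates, members were described by counts and medians beside the same over all protein-coding genes. Named members were those with an untreated peak, up to 4 per complex with H3K27me3 in shE2F1 only, those without E2F1 peaks, the 6 most significant control H3K27me3 peaks, the 3 highest and 3 lowest log2 ratios, the isoform sets and the SDH genes. Others were named after their values were seen, and 1 member counted in the totals is not reported here singly. The members and lists were chosen with earlier results of these data known. Alternatives covered thresholds, windows, TSS choice, list length and membership.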

Additional observations from a re-analysis of the deposited data

How the results depend on the processing

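No paired analysis was possible because each condition has 1 library, and no library could be left out. Of 84 alternative values for the members, 71 stayed inside the 95% interval of the value reported, 30 of them higher, 28 lower and 13 equal. Shares cannot change sign, so only the H3K27me3 difference and the log2 ratio of fold could, and neither did. The 13 values outside their interval were as follows. At −log10 q of at least 5 the H3K27me3 shares were 8.14% with control shRNA and 17.4% with shE2F1, a difference of 9.30 percentage points, and at −log10 q of at least 2 the shE2F1 share was 32.6%. With the strongest peaks only, in the number of the untreated list, the DMSO and GSK126 E2F1 shares were both 5.81%. In CpG-rich promoters the GSK126 share was 71.2%. Without peaks shared with another gene the shares were 11.6% for DMSO, 27.9% for GSK126 and 23.3% for H3K27me3 in shE2F1, and the H3K27me3 difference was 9.30 percentage points, where all genes had 23.8, 37.5, 40.6 and 17.5. In 500 bp on either side of the TSS the E2F motif was at 53.5% of members and the SP motif at 82.6%, against 38.4 and 76.9% of all genes. The untreated list was the shortest, with 7 fragments as the fewest called, and whether sequencing depth or the yield of the immunoprecipitation set its length was not tested. A gene missing from a list has no value there, so absent and weak signal cannot be told apart, and 1 library per condition leaves sample spread unknown.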

Other observations

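Ribosomal protein genes, which like the subunit genes are compact and active in most cells, were read in the same way. Of 78 mitochondrial ribosomal protein genes, which serve the translation of the mitochondrially encoded subunits, 5 had an E2F1 peak in untreated cells, 32 with DMSO and 54 with GSK126 (69.2%, 57.8 to 79.2%). H3K27me3 was at 8 of them with control shRNA (10.3%) and at 41 with shE2F1 (52.6%), and 33 had it with shE2F1 only (42.3%, 31.2 to 54.0%). Of 85 cytosolic ribosomal protein genes, 6, 52 and 75 had E2F1 peaks in the 3 lists (88.2% with GSK126, 79.4 to 94.2%), and 17 and 50 had H3K27me3 with control shRNA and shE2F1 (20 and 58.8%). For all protein-coding genes the shares were 51.5% for E2F1 with GSK126, 27.1% and 51.2% for H3K27me3 with control shRNA and shE2F1, and 26% for H3K27me3 with shE2F1 only. For the subunits of oxidative phosphorylation they were 60.5, 18.6, 44.2 and 26.7%, and the 60.5% lies inside the interval of the mitochondrial ribosomal proteins.

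Among the assembly factors, NUBPL, which delivers iron-sulphur clusters to complex I, had the strongest H3K27me3 peak with shE2F1, with a fold of 8.32 for control shRNA and 19.4 for shE2F1. The complex III assembly factor UQCC4 had 8.53 and 9.87. POLRMT, the mitochondrial RNA polymerase, had an shE2F1 peak with a fold of 4.58, no control peak and no E2F1 peak in any list.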
